A study of Homo sapiens with 24 samples.

Results

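The comparison described here set 3 RT-112 libraries labelled CD44 High against 3 RT-112 libraries labelled CD44 Low, 6 of the 24 libraries of the series, across all genes of the deposited table. RT-112 is an established human bladder cancer line of papillary, epithelial character. The members were taken by their column names, RT-112_CD44_High and RT-112_CD44_Low, replicates 1 to 3. The series holds 4 groups for RT-112 and 4 for a second human bladder cancer line, J82. In each line these are the parental cells, a derived line with low CD44 receptor expression, one with high CD44 expression and one with high CD44v6 expression, and no drug, time or dose is given for any of them. All groups have 3 libraries that the submitters call biological replicates. How the derived lines were made, and whether each is 1 clone, was not given in the sources used here, so an effect of CD44 level and any other difference between these particular lines cannot be told apart. Whether the replicates were separate cultures was not stated either, and the p-values measure the spread between these libraries.

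CD44 is a cell-surface glycoprotein that binds hyaluronan and other matrix molecules, and whose cytoplasmic tail contacts the cortical actin cytoskeleton through proteins of the ezrin, radixin and moesin family. In the urothelium it is most abundant in the basal cells, which also carry keratin 5 and rest on the basement membrane, while the surface cells carry uroplakins and keratin 20. Basal and luminal programmes are likewise used to describe bladder tumours, in which p63 marks the basal end and PPARG, GATA3 and FOXA1 the luminal end.

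The libraries held 18514127 to 24419670 counts in CD44 Low and 16913235 to 21847714 in CD44 High. Of 35993 gene symbols in the table, 11763 had no count in any of the 12 RT-112 libraries, and 15645 had enough counts to be tested. Levels below are counts scaled to a common library size (CPM) after TMM scaling, which adjusts each library for its composition. They were not divided by transcript length and are compared only within a gene. The signal recognition particle and 7SK RNAs took 6.65% to 7.12% of the counts in CD44 Low and 5.70% to 6.66% in CD44 High. Leukocyte, endothelial and fibroblast markers were examined for other cell types. Of 7 fibroblast genes, 5 were at 0 in all 6 libraries (PDGFRA, PDGFRB, DCN, THY1 and POSTN). Their summed level was 210.0 to 261.9 CPM in CD44 Low and 114.0 to 184.3 CPM in CD44 High, nearly all of it LUM, the matrix proteoglycan lumican. For endothelial genes, 2 of 7 were at 0 (KDR and CLDN5) and the sums were 18.2 to 23.5 CPM in CD44 Low and 11.4 to 17.7 CPM in CD44 High. For leukocyte genes, 5 of 7 were at 0 (PTPRC, CD3E, MS4A1, CD14 and TYROBP) and the sums were 10.9 to 12.6 CPM and 7.09 to 13.4 CPM.

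CD44 itself checks the labels. It was measured at 117, 147 and 151 CPM in CD44 Low replicates 1 to 3 and at 427, 344 and 498 CPM in CD44 High. Every CD44 High library lay above every CD44 Low library, and the log2 fold change was 1.61 (SE 0.15, adjusted p = 7.39e-05, edgeR quasi-likelihood test with Benjamini-Hochberg adjustment over all genes tested, as for all adjusted p-values below). The parental cells lay between the groups, at 319 ± 27.3 CPM (SD, n = 3). Since the groups are named for CD44, this level is a check and not a finding.

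Between CD44 High and CD44 Low, 2507 of 15645 genes (16%) passed an adjusted p of 0.05, of which 1409 (9.01%) were higher in CD44 High and 1098 (7.02%) were lower. Most differences were small. The median size among the genes called was 0.60 on the log2 scale, 1192 of them changed by less than 1.5-fold, and 233 rose and 264 fell by more than 2-fold. In 2428 of the genes called, the libraries of the groups did not overlap, against 30.8% of all genes tested. The median log2 fold change over all genes tested was 0.02. The count of calls depended on the libraries and the fit: it was 1230 without CD44 High replicate 1, 1344 without CD44 Low replicate 1, 1474 without CD44 Low replicate 2 and 1171 when only the 6 libraries were fitted. Replicate 3 of CD44 High was the library of its group nearest to CD44 Low in 62.7% of the genes called higher and in 57% of those called lower.

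The 12 largest increases were taken among well-expressed genes that were called and whose CD44 High and CD44 Low libraries did not overlap. They were led by CD109, MMP13, NT5E and HMGA2. CD109, a surface protein that binds TGF-beta, was measured at 2.63, 1.93 and 2.97 CPM in CD44 Low and at 34.4, 26.7 and 7.39 CPM in CD44 High. Replicate 3 of CD44 High was far below replicates 1 and 2, though above every CD44 Low library as the selection required. The log2 fold change was 3.18 (SE 0.49, adjusted p = 0.00136). MMP13, the collagenase 3 of the matrix metalloproteinases, was at 3.22, 3.43 and 2.21 CPM in CD44 Low and at 21.4, 12 and 30.6 CPM in CD44 High, a log2 change of 2.84 (SE 0.33, adjusted p = 0.000268). For MMP13 replicate 3 was the highest, so the order of the CD44 High libraries was not the same from gene to gene. In CD44v6 replicates 1 to 3, CD109 was at 10.8, 9.07 and 20.9 CPM and MMP13 at 32.1, 25.2 and 17.7 CPM. In both genes CD44 High replicate 3 was closer to CD44v6 replicate 1 than to CD44 High replicates 1 and 2. Conversely, CD44v6 replicate 3 was closer to CD44 High replicate 2 than to CD44v6 replicates 1 and 2. Library labels were taken as given, and what sets replicate 3 of CD44 High and replicate 3 of CD44v6 apart was not tested.

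NT5E, the ecto-5'-nucleotidase CD73 that makes adenosine at the cell surface, was at 9.70, 11.2 and 12.2 CPM in CD44 Low and at 93.1, 52.8 and 91.2 CPM in CD44 High (log2 fold change 2.84, SE 0.20, adjusted p = 1.58e-05). HMGA2, an architectural chromatin protein of embryonic and tumour tissue, was at 2.63, 3.30 and 4.69 CPM in CD44 Low and at 27.5, 19.6 and 26.0 CPM in CD44 High (log2 fold change 2.80, SE 0.22, adjusted p = 2.53e-05). For both genes even the lowest CD44 High library was several times the highest CD44 Low library. PTHLH, the parathyroid hormone-related protein, rose by 2.35 from 8.28, 16.3 and 15.2 CPM to 79.3, 56.5 and 67.2 CPM.

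The receptor tyrosine kinase gene AXL rose from 12.1, 11.3 and 22.8 CPM to 70.9, 69.3 and 36.3 CPM (log2 change 1.94, SE 0.33, adjusted p = 0.00247), and here replicate 3 of both groups lay closest to the other group. LIPG, the endothelial lipase, rose by 2.16, MARVELD1 by 2.02 and the serotonin receptor gene HTR7 by 1.97. The core histone genes H2BC3 and H3C3 rose by 2.60 and 2.21. The last of the 12, the long non-coding RNA FLJ22447, had a log2 fold change of 2.42 (adjusted p = 0.0149). It was measured at 25.7 and 33.4 CPM in CD44 High replicates 1 and 2 but at 6.5 CPM in replicate 3, and it passed the threshold in 3 of the 6 fits that each left out 1 library of these groups.

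The 12 largest decreases, chosen by the same rule, were led by DHRS2, ALPG and KRT20. DHRS2, a short-chain dehydrogenase/reductase, was at 49.7, 52.4 and 38.5 CPM in CD44 Low and at 4.93, 5.35 and 5.51 CPM in CD44 High, a log2 change of -3.15 (SE 0.15, adjusted p = 4.17e-07). KRT20, keratin 20 of the surface urothelial cells, was at 12.2, 23.5 and 21.2 CPM in CD44 Low and at 1.98, 1.24 and 5.42 CPM in CD44 High (log2 fold change -2.69, SE 0.52, adjusted p = 0.00502). HPGD, the enzyme that inactivates prostaglandins, was at 133, 105 and 85.2 CPM in CD44 Low and at 19.3, 25.0 and 27.4 CPM in CD44 High (log2 fold change -2.17, SE 0.18, adjusted p = 4.36e-05). Non-overlap of the groups was required of all 3 genes, and the CD44 High libraries of DHRS2 were nearly equal.

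ALPG, the germ-cell alkaline phosphatase, fell by 3.07 on the log2 scale, though reads of this gene can be shared with its close relative ALPP and its count is uncertain to that extent. COLCA1 fell by 2.56, TLE6 by 2.26, the tight junction scaffold TJP3 by 2.17, DENND2D by 2.13, the amino acid transporter SLC6A14 by 2.10 and SPTSSB, a subunit of serine palmitoyltransferase, by 2.06. FLG, the filaggrin of cornifying epithelium, was at 16.4, 36.8 and 47.6 CPM in CD44 Low and at 7.09, 5.40 and 10.5 CPM in CD44 High (log2 fold change -2.12). TRIM22, an interferon-inducible ubiquitin ligase, was at 32.2, 25.2 and 18.5 CPM in CD44 Low and at 2.58, 4.22 and 11.3 CPM in CD44 High (log2 fold change -2.05, adjusted p = 0.0106). With the exception of FLJ22447, each of the 24 genes kept its call in all 6 fits with 1 library left out. The genes were chosen from these same libraries, so these fits are not independent support for them.

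**Figure D1:**
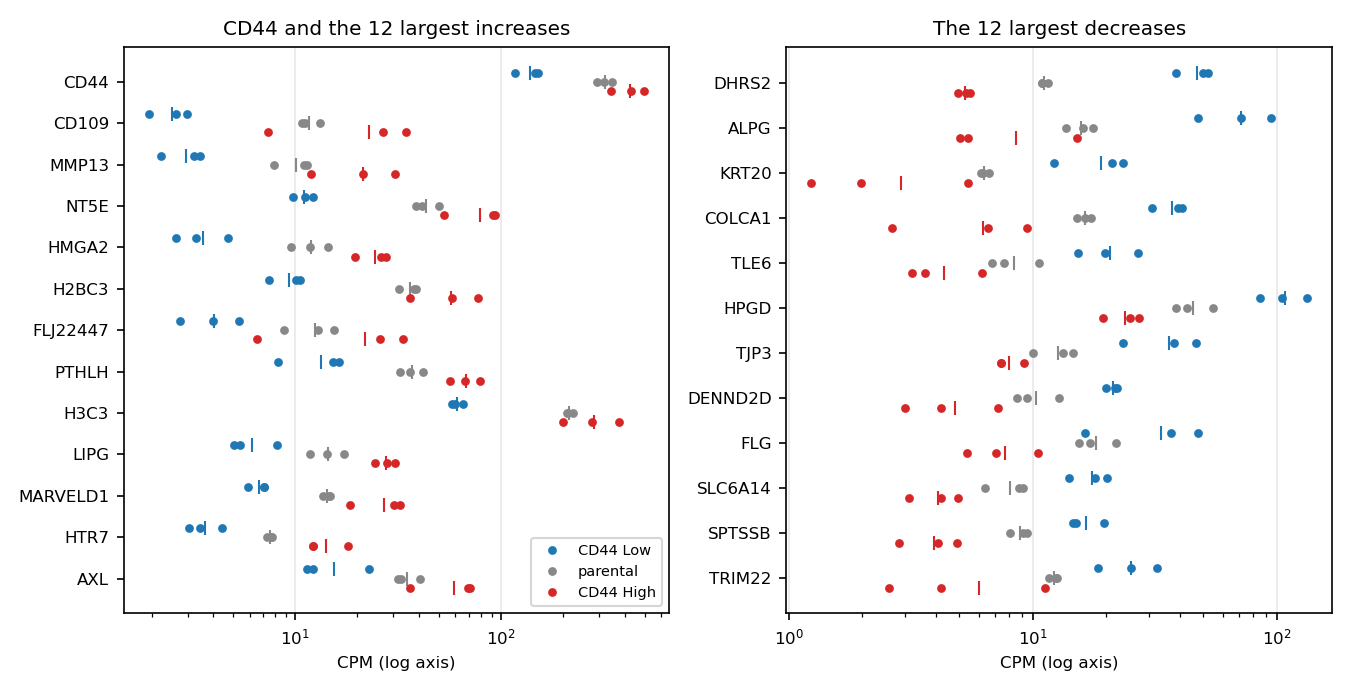
CPM on a log axis for CD44 and the 12 largest increases (left) and the 12 largest decreases (right) in RT-112. Each point is 1 library (blue CD44 Low, grey parental, red CD44 High) and each vertical tick a group mean; the CD44 High points of CD109, from 34.4 down to 7.39 CPM, are spread far more than those of DHRS2, from 4.93 to 5.51 CPM.

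Most basal genes that changed were higher in CD44 High, and the luminal genes that changed were all lower. Of 18 basal urothelial genes tested, 9 rose and 2 fell (61.1% called, against 16% of all genes), with a median log2 fold change of 0.45. Of 20 luminal urothelial genes tested, none rose and 12 fell (60% called), with a median of -0.51. KRT5, the keratin of the basal layer, was at 321, 368 and 387 CPM in CD44 Low and at 692, 703 and 628 CPM in CD44 High (log2 fold change 0.91, SE 0.12, adjusted p = 0.00049). TP63, the basal transcription factor p63, rose by 0.70, from 73.5, 84.6 and 103 CPM to 138, 141 and 146 CPM. In both genes the 3 CD44 High libraries were close together and well above CD44 Low. KRT6A and KRT6C rose by 1.24 and 1.06, with the reservation that their near-identical sequences share reads. The integrin beta 4 gene ITGB4, part of the hemidesmosome, rose by 0.91, and LAMA3, a laminin chain of the basement membrane, rose by 0.63. Integrin alpha 6, the partner of beta 4, is described below with the integrins. Another laminin chain gene, LAMB3, had a log2 fold change of 0.07 and was not called.

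The basal list did not move as 1 block. KRT16 and KRT17, keratins of activated and stratified epithelium with close pseudogene copies, fell by 1.11 and 0.65. KRT17 was at 2982, 3001 and 2380 CPM in CD44 Low and at 1482, 2165 and 1692 CPM in CD44 High. KRT14, the keratin partner of KRT5, had a log2 fold change of -0.36 (adjusted p = 0.555), and its CD44 High libraries, at 4.21, 4.50 and 8.81 CPM, overlapped those of CD44 Low. Across all 29 keratin genes tested, a family gathered after the values were seen, 4 rose and 11 fell. Over all genes tested, 9.01% rose and 7.02% fell. Most of these keratin calls are not separate results, since KRT5, KRT6A, KRT6C, KRT7, KRT8, KRT16, KRT17, KRT19 and KRT20 also count in the basal or luminal list. The falls included KRT4 (from 742, 873 and 669 CPM to 246, 291 and 250.5 CPM) and KRT13 (from 5257, 5179 and 4786 CPM to 3115, 3281 and 3437 CPM), keratins of the suprabasal layers of non-cornifying epithelium. KRT4 fell by 1.54 and KRT13 by 0.63.

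The largest falls among the luminal genes, beside KRT20, were in UPK1A, SNX31 and FABP4. UPK1A, a uroplakin of the apical plaques, was at 5.65, 4.22 and 4.86 CPM in CD44 Low and at 0.901, 0.732 and 1.37 CPM in CD44 High (log2 fold change -2.27, SE 0.29, adjusted p = 0.000436). UPK1B fell by 0.73, the sorting nexin SNX31 by 2.41 and the monooxygenase CYP4B1 by 1.25. FABP4, a fatty acid binding protein and PPARG target, fell by 1.5, from 2459, 2846 and 2957 CPM to 649, 568 and 1710 CPM. CD44 High replicate 3 lay between the groups here, and the call held in 4 of the 6 fits with a library left out. Of the transcription factors in the list, TBX3 fell by 0.71, from 22.8, 22.1 and 20.8 CPM to 13.3, 15.1 and 11.7 CPM, while ELF3 had a log2 fold change of -0.64 and was not called. PPARG had a log2 fold change of -0.26 with an adjusted p of 0.0499 and kept its call in 1 of those 6 fits, while FOXA1 (-0.16, adjusted p = 0.375) and GATA3 (-0.10, adjusted p = 0.722) were not called. The simple keratins KRT8 and KRT19 fell by 0.46 and 0.64. The number of luminal genes called was 8 without CD44 Low replicate 2 and 8 when only the 6 libraries were fitted.

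Of 38 mitosis genes tested, 22 rose and none fell (57.9% called), and the median log2 fold change was 0.52. UBE2C, the ubiquitin-conjugating enzyme of the anaphase-promoting complex, was at 60.4, 49.6 and 55.0 CPM in CD44 Low and at 149, 158 and 175 CPM in CD44 High (log2 fold change 1.55, SE 0.09, adjusted p = 2.48e-06). CDC25B, the phosphatase that activates CDK1 at mitotic entry, was at 33.4, 36.0 and 34.0 CPM and at 81.3, 81.8 and 67.9 CPM (log2 change 1.16). ESPL1, the separase that cleaves cohesin, was at 17.1, 20.7 and 23.3 CPM and at 35.9, 43.0 and 42.4 CPM (log2 change 0.99). All 3 genes kept their calls in each fit with a library left out. The kinase genes AURKB, AURKA, CDK1 and PLK1 rose by 0.89, 0.87, 0.82 and 0.82 and the transcription factor FOXM1 by 0.59. Other genes of the list did not pass the test: MKI67, the Ki-67 antigen, had a log2 fold change of 0.56 (adjusted p = 0.0807, called in 2 of 6 fits with a library left out), CCNB1 0.27, CENPF -0.06 and PTTG1 0.04. The mitosis count ran from 17 to 27 over the fits with a library left out, and all genes called in them were higher. The proportion of cells in mitosis and the transcript level per cell cannot be told apart in these bulk samples.

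The promoters of mitosis genes are shown because the members moved together and because many carry a pair of short elements, the cell cycle genes homology region (CHR, TTTGAA) and CCAAT boxes. Called genes were taken in order of the size of their change, and only where a promoter was available and held a match. Every stretch printed therefore shows an element by choice, and UBE2C and CDC25B, with larger changes, were passed over. The stretches below are from RefSeq on GRCh38.p14, upstream of the start of the transcript, read 5′ to 3′ on the strand of the gene, and capitals mark the CHR (TTTGAA or, on the other strand, TTCAAA) and the CCAAT box (CCAAT or ATTGG).
ESPL1, chr12:53268239-53268285, plus strand: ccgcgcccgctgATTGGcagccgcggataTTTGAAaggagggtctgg
AURKB, chr17:8210362-8210390, minus strand: accagcgcccagATTGGggctagtgtgct
CDK1, chr10:60778158-60778197, plus strand: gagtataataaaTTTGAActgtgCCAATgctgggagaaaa
PLK1, chr16:23678804-23678877, plus strand: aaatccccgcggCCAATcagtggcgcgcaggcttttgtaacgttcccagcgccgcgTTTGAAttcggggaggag
KIF23, chr15:69414273-69414311, plus strand: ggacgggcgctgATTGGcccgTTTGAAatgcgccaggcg
BUB1B, chr15:40161034-40161063, plus strand: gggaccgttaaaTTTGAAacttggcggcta

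In the upstream windows of 250 bases, read on both strands, the CHR letters were found in 16 of 32 mitosis promoters (50%) and in 9 of the 17 whose genes were called (52.9%), against 13.6% of 27305 promoters in the RefSeq table. CCAAT was found in 24 of the 32 (75%) and 12 of the 17 (70.6%), against 33% of all. The AP-1 letters TGACTCA were in none of the 32 and in 4.16% of all. Each share was close between all mitosis promoters and those of the genes called. No matches overlap in the stretches printed, and a match of letters is not a bound site.

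**Figure D2:**
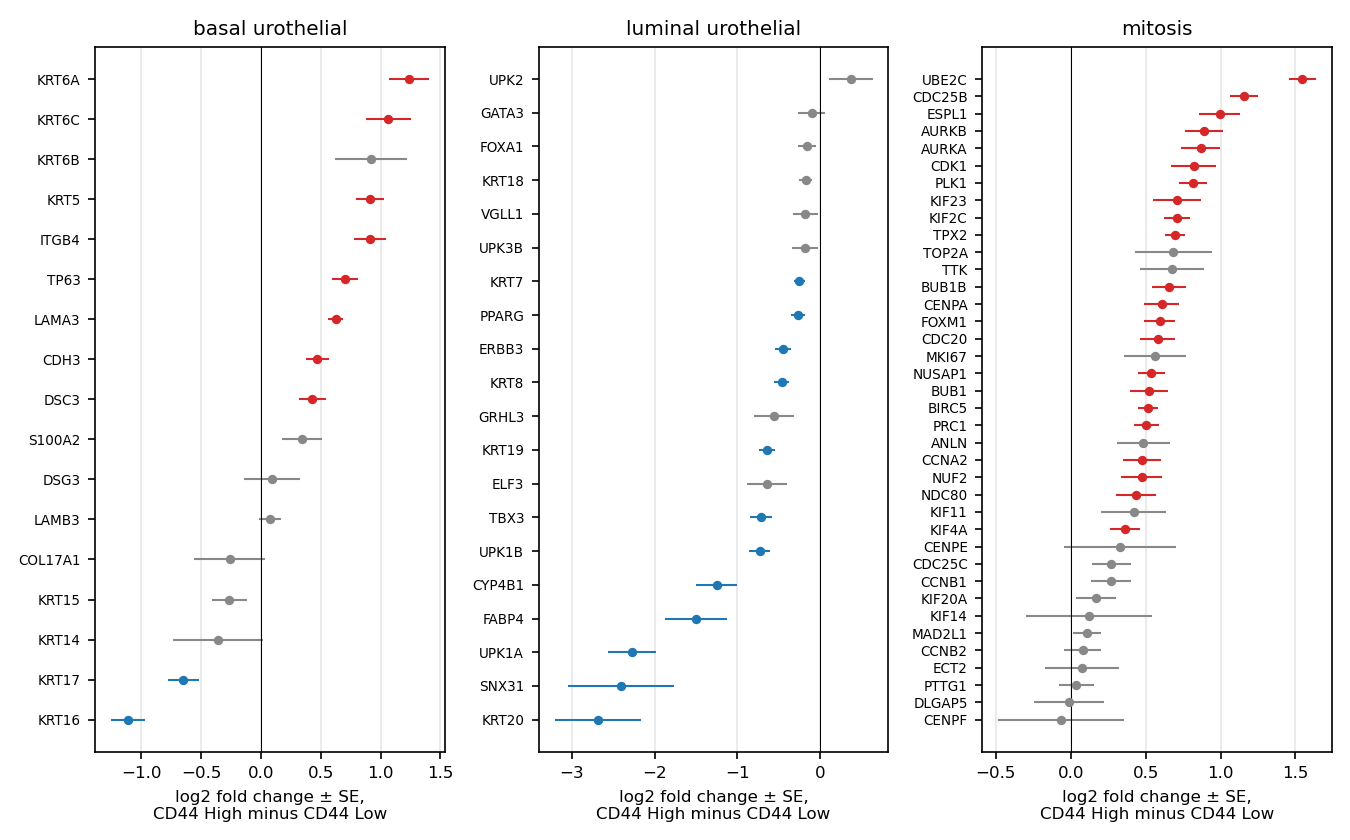
Log2 fold change with its standard error for tested basal (left; 17 of 18 shown), luminal (centre) and mitosis genes (right), CD44 High minus CD44 Low. Red genes were called higher, blue lower and grey not called; the median over all tested genes of the list is 0.45 in the basal, -0.51 in the luminal and 0.52 in the mitosis list.

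Of 38 DNA replication genes tested, 7 rose and 1 fell (21.1% called, against 16% of all genes), and the median was 0.15. GINS1, a subunit of the replicative helicase, rose by 0.68 from 100.2, 94.2 and 109 CPM to 185, 149.98 and 153 CPM, and POLA2 and POLE, subunits of DNA polymerases alpha and epsilon, rose by 0.56 and 0.51. MCM6, a subunit of the helicase ring, had a log2 fold change of -0.49 (adjusted p = 0.0469) and was called in 2 of 6 fits with a library left out. The other MCM2 to MCM7 genes were not called. Without CD44 High replicate 1 the list held 3 higher genes and without CD44 High replicate 3 it held 12. Of the mitosis and replication genes, AURKA, UBE2C, TPX2, CDC25B and GINS1, which rose, and PCNA (0.16) and E2F1 (-0.26), which were not called, lie on chromosome 20, where 24.4% of genes rose.

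Clustered core and linker histone genes, a family gathered after the values were seen, rose together. Of 59 tested, 45 rose (76.3%, against 9.01% of all genes) and none fell, and the median log2 fold change was 0.60. H3C3 was at 65.7, 58.0 and 59.8 CPM in CD44 Low and at 375, 277 and 201 CPM in CD44 High. H2BC3 was at 10.6, 10.1 and 7.45 CPM and at 77.7, 57.7 and 36.2 CPM. The family's summed level was 7958 to 9386 CPM in CD44 Low, 10914 to 14459 CPM in CD44 High and 13872 to 14784 CPM in parental cells, so that the CD44 Low libraries stood below all the others in the comparison. Histone genes are near copies of each other and their reads can be shared. Their share of the counts was 0.930% to 1.07% in CD44 Low and 1.20% to 1.57% in CD44 High, while that of the signal recognition particle and 7SK RNAs, which likewise lack a poly(A) tail, was 5.70% to 6.66% in CD44 High against 6.65% to 7.12% in CD44 Low.

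Among EGF receptor ligands and genes induced by ERK signalling, 11 of 23 tested rose and 1 fell (52.2% called), with a median of 0.39. AREG, the EGF receptor ligand amphiregulin, was at 4.93, 7.21 and 6.96 CPM in CD44 Low and at 23.7, 16.8 and 27.2 CPM in CD44 High (log2 fold change 1.83, SE 0.20, adjusted p = 0.000161). The ligand genes HBEGF and TGFA rose by 0.86 and 0.46. The receptor EGFR was at 102, 109 and 143 CPM in CD44 Low and at 231, 191 and 204 CPM in CD44 High (log2 fold change 0.82, SE 0.12, adjusted p = 0.000912). Ligands and receptor were thus higher in every CD44 High library than in any CD44 Low library for AREG, HBEGF and EGFR.

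Of the feedback genes of the pathway, DUSP6, the phosphatase that inactivates ERK, was at 38.3, 44.6 and 38.1 CPM and at 85.3, 83.7 and 87.1 CPM (log2 change 1.08). SPRY4, a sprouty inhibitor, rose by 0.88. FOSL1, an AP-1 subunit, rose by 1.5 from 7.44, 10.6 and 11.5 CPM to 25.8, 34.3 and 23.4 CPM, and the ETS factors ETV5 and ETV4 rose by 0.51 and 0.46. The feedback genes SPRY2 (-0.07), SPRED1 (0.08) and DUSP5 (0.12) were not called. ERBB2 had a log2 fold change of -0.28 (adjusted p = 0.0437) and was called in 2 of 6 fits with a library left out. FGFR3, the receptor kinase often altered in bladder cancer, rose by 0.37 from 211, 234 and 196 CPM to 266, 296 and 269 CPM. Without CD44 High replicate 1, 6 list genes were called higher and none lower.

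Of 22 targets of YAP and TEAD tested, 10 rose and 2 fell (54.5% called), with a median of 0.36. Some lie in the chromosome 1 stretch or on chromosomes 6, 11 and 20, described below. Of the 17 outside these regions, 7 rose and 2 fell, with a median of 0.18. TGFB2, the cytokine TGF-beta 2, had 1.59, 0.440 and 0.540 CPM in CD44 Low and 25.4, 21.7 and 4.57 CPM in CD44 High, a log2 change of 4.28 (SE 0.82, adjusted p = 0.00457). ANKRD1, a stretch-responsive nuclear protein, rose by 1.5, from 13.3, 10 and 7.66 CPM to 24.6, 35.9 and 27.6 CPM. NT5E and AXL, described above, belong to this list too, and NT5E lies on chromosome 6. Of the 10 targets not called, CCN1 had a log2 fold change of 0.18, CCN2 0.38 and AMOTL2 0.18. IGFBP3 fell by 0.71 and MYOF by 0.31. Without CD44 High replicate 1, 4 list genes were called higher and 1 lower.

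Matrix and mesenchymal genes were split. Of 12 mesenchymal genes tested, 4 rose and 1 fell (41.7% called), while the median was -0.34, opposite in sign to the majority of the calls. The genes that rose encode the matrix proteins TNC, THBS1 and FN1 and the actin-binding protein TAGLN. THBS1, thrombospondin 1, was at 547, 602 and 691 CPM in CD44 Low and at 1949, 1983 and 1139 CPM in CD44 High (log2 fold change 1.46, SE 0.24, adjusted p = 0.00226). FN1, fibronectin, was at 192, 207 and 233 CPM and at 442, 400.4 and 770.2 CPM (log2 change 1.35, SE 0.23, adjusted p = 0.0025). TNC, tenascin C, rose by 2.45 from 1.30, 0.791 and 1.62 CPM to 9.31, 6.47 and 4.43 CPM. In THBS1 and TNC replicate 3 was the lowest of the CD44 High libraries and in FN1 the highest.

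The intermediate filament and transcription factor genes of the mesenchymal state were not called. VIM, vimentin, was at 0.920, 1.05 and 2.54 CPM in CD44 Low and at 0, 0.788 and 1.65 CPM in CD44 High, overlapping levels near the limit of detection. SNAI1, SNAI2, ZEB1 and TWIST2 had log2 fold changes of -0.40, -0.28, -1.10 and -0.43 and none was called. ACTA2, smooth muscle actin, had a log2 fold change of -1.14 (adjusted p = 0.027), with a call in 2 of 6 fits with a library left out. Of 21 epithelial junction genes, 4 rose and 1 fell (23.8% called, against 16% of all genes, median 0.15). The desmosomal cadherin DSC2, the tight junction claudin CLDN1 and the adhesion molecule EPCAM rose by 0.92, 0.89 and 0.55, and TJP3 fell as given above. EPCAM kept its call in 3 of 6 fits. CDH1, E-cadherin, was at 364, 340.4 and 343 CPM in CD44 Low and at 305, 334 and 287 CPM in CD44 High. These CDH1 values did not overlap, but the log2 fold change of -0.18 was not called (adjusted p = 0.123, called in 1 of 6 fits with a library left out).

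Among 13 integrin genes, 2 rose and 1 fell (23.1% called, against 16% of all genes). ITGA6, the alpha 6 chain that pairs with beta 4 in the hemidesmosome, was at 411, 418 and 468 CPM in CD44 Low and at 970.5, 778 and 906 CPM in CD44 High (log2 fold change 1.03, SE 0.09, adjusted p = 4.36e-05). The groups did not overlap. ITGA3, the other laminin-binding alpha chain, and ITGB6 had log2 fold changes of 0.29 (adjusted p = 0.0257) and -0.76 (adjusted p = 0.0482) and were called in 2 and 1 of 6 fits with a library left out. Of 16 collagen genes (12.5% called), COL4A2 rose by 0.70 and COL4A5 fell by 0.65, the latter with a call in 2 of 6 fits. Among 24 genes of matrix proteases and the plasminogen system, 3 rose and 2 fell (20.8% called, against 16% of all genes, median -0.02). Beside MMP13, these were PLAT, tissue plasminogen activator, which rose by 1.30 from 5.56, 5.49 and 6.10 CPM to 14.8, 15.5 and 11.9 CPM, and ADAMTS1, whose CD44 Low libraries held at most 0.216 CPM. MMP28 fell by 1.09 from 46.3, 46.7 and 44.8 CPM to 19.2, 21.6 and 24 CPM. ADAM10, a protease that sheds CD44, had a log2 fold change of -0.67 (adjusted p = 0.0278, called in 2 of 6 fits). MMP14, PLAU and PLAUR were not called.

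Of 15 genes for CD44 ligands and partners, 3 rose and none fell (20% called, near the 16% of all genes). MSN, moesin, had no count in any CD44 Low library and 20, 34 and 5 counts in CD44 High replicates 1 to 3, at least 24.3-fold higher against a limit of 3 counts over the CD44 Low group (adjusted p = 0.0135). Its level in CD44 High was itself low, at 1.20, 1.91 and 0.235 CPM. EZR, ezrin, was at 1063, 985 and 989.5 CPM and at 1486, 1561 and 1115 CPM (log2 change 0.45, adjusted p = 0.0354), and was called in 1 of 6 fits with a library left out. MET, the hepatocyte growth factor receptor, rose by 0.42 and was called in 3 of those fits. RDX, radixin, had a log2 fold change of -0.06. The hyaluronan synthase gene HAS2 had no count in any of the 6 libraries, and HAS3 lay between 1.08 and 2.64 CPM and was not called. The splicing regulators ESRP1 (-0.06) and ESRP2 (-0.23) were not called. None of the 3 calls held when only the 6 libraries were fitted.

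Interferon-induced and antigen presentation genes went both ways. Of 29 tested, 4 rose and 7 fell (37.9% called), and the list median lay close to 0, at -0.0031. Of the 19 outside the chromosome 1 stretch and chromosomes 6, 11 and 20, described below, 2 rose and 7 fell. Their median was -0.34. IFI44 was at 5.81, 4.57 and 3.13 CPM in CD44 Low and at 1.26, 1.24 and 1.32 CPM in CD44 High (log2 fold change -1.82, SE 0.32, adjusted p = 0.00304). The antiviral genes MX2, IFIT1, IFIT2 and OAS1 fell by 1.20, 0.87, 0.87 and 0.78, and B2M, the light chain of class I molecules, by 0.34. TAP2, a chain of the peptide transporter, ISG15, the ubiquitin-like modifier, and DDX58, the RNA sensor now named RIGI, rose by 0.78, 0.71 and 0.59. These 3 rises were called in 3, 1 and 3 of 6 fits with a library left out, whereas the falls of IFI44, MX2 and IFIT1 held in all 6. TAP2 lies on chromosome 6 and ISG15 in the chromosome 1 stretch described below. IFIT1 lies at the end of the block of 20 neighbouring genes with the lowest median, on chromosome 10 from SNCG (median -0.46, 9 lower). IRF1, a transcription factor of the interferon response, had a log2 fold change of 0.00 and was not called.

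Of 15 NF-kB and chemokine genes, 2 rose and 1 fell (20% called, near the 16% of all genes; median -0.02). TNFAIP3, the A20 inhibitor of NF-kB, was at 58.3, 41.7 and 29.7 CPM in CD44 Low and at 126, 192 and 69.5 CPM in CD44 High (log2 fold change 1.57, SE 0.36, adjusted p = 0.012). TNFAIP3 was at 22.1 to 45.4 CPM in parental cells, so that CD44 High stood above both. IL1A had a log2 fold change of 0.87 and a call in 2 of 6 fits, TNFAIP2 fell by 0.61, and the inhibitor NFKBIA (0.05) and CXCL8 (-0.14) were not called.

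Of 23 oxidative stress and xenobiotic genes tested, none rose and 8 fell (34.8% called), with a median of -0.21. ALDH3A1, an aldehyde dehydrogenase of surface epithelia, was at 70.5, 69.3 and 60.8 CPM in CD44 Low and at 19.1, 20 and 28.4 CPM in CD44 High (log2 fold change -1.57, SE 0.20, adjusted p = 0.000497). NQO1, a quinone reductase and NRF2 target, fell by 0.73 from 399, 344 and 277 CPM to 190.3, 219 and 206 CPM, HMOX1 by 0.66 and AKR1C3 by 0.72. The AKR1C genes are near copies that can share reads. The glutathione synthesis genes GCLC (0.08) and GCLM (0.20) and the cystine transporter SLC7A11 (-0.27), NRF2 targets as well, were not called.

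Genes that handle platinum drugs and gemcitabine, agents used in bladder cancer, moved in both directions: 6 of 25 rose and 3 fell (36% called, median 0.09). No drug was given in this comparison. CDA, the cytidine deaminase that inactivates gemcitabine, was at 4.39, 3.38 and 3.24 CPM in CD44 Low and at 7.69, 14.7 and 6.74 CPM in CD44 High (log2 fold change 1.40, SE 0.29, adjusted p = 0.00688). RRM2, RRM1 and TK1, enzymes of nucleotide supply, rose by 0.74, 0.34 and 0.50. MT2A, a metal-binding metallothionein with near copies, was at 0, 0.747 and 1.46 CPM in CD44 Low and at 13.3, 15.9 and 4.80 CPM in CD44 High (log2 fold change 4.01, adjusted p = 0.00299). Among efflux pumps, ABCC4 rose by 0.76, and ABCG2 and ABCC3 fell by 0.78 and 0.63. RRM2B, the p53-inducible ribonucleotide reductase subunit, fell by 1.08, with calls in 4 of 6 fits. The copper transporters SLC31A1 (-0.08), ATP7A (-0.45) and ATP7B (-0.35) and the repair gene ERCC1 (-0.09) were not called.

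In cholesterol synthesis, 4 of 25 genes fell and none rose (16% called, equal to the share of all genes; median -0.16). MSMO1, HMGCS1 and FDFT1 had log2 fold changes of -0.52, -0.40 and -0.39 and were called in 1, 4 and 3 of 6 fits with a library left out, and no list gene was called without CD44 High replicate 1 or without CD44 Low replicate 1. In glycolysis and hypoxia, 2 of 25 rose and 1 fell (12% called, median -0.03). ENO1, an enolase, was at 1048, 1018 and 1055 CPM in CD44 Low and at 2002, 1797 and 1674 CPM in CD44 High, a log2 fold change of 0.81. LDHA, lactate dehydrogenase A, rose by 0.49 and PFKFB3 fell by 0.59, and the remaining enzymes, GAPDH (0.08) and PGK1 (-0.03) among them, were not called. ENO1 and CDA both lie in the chromosome 1 stretch described next.

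**Figure D3:**
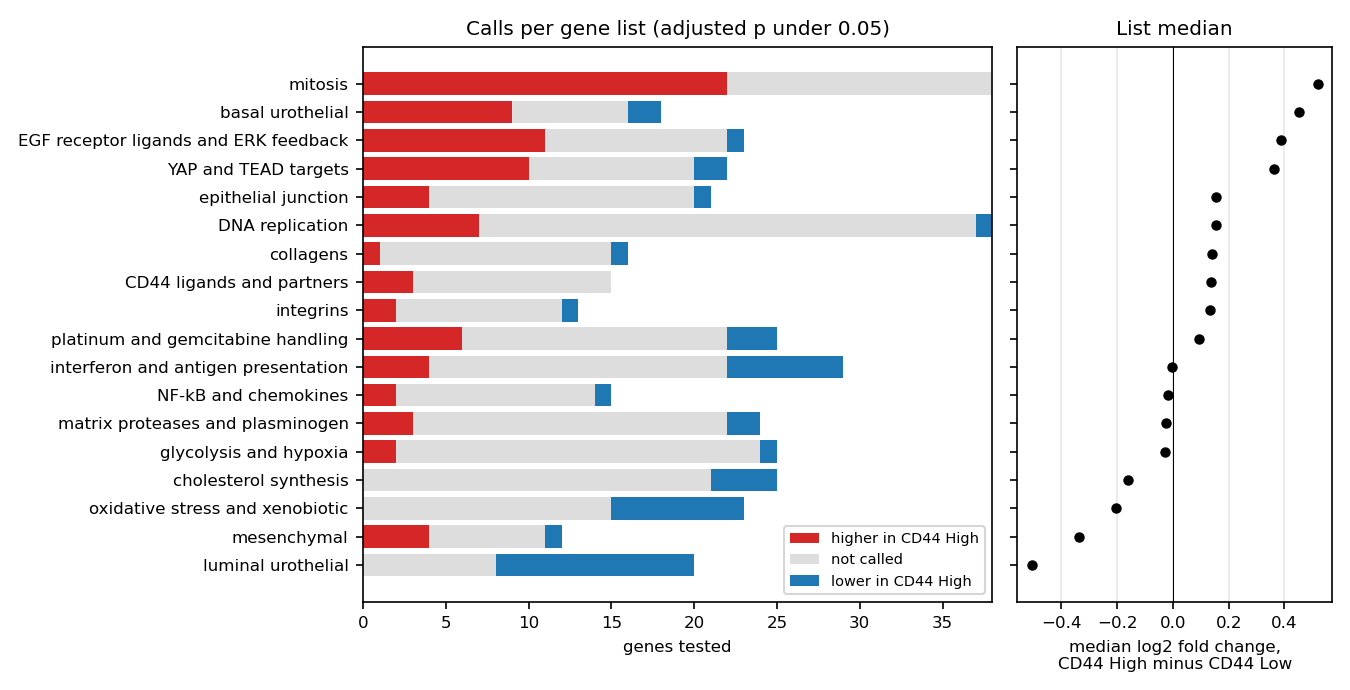
Calls in 18 gene lists (left; red higher, grey not called, blue lower in CD44 High, as numbers of genes tested) and the median log2 fold change of each list (right). The mitosis list has the highest median, 0.52, and the luminal list the lowest, -0.51.

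Genes that rose were not spread evenly over the chromosomes. Genes were ordered by their RefSeq neighbours, and a stretch at the start of chromosome 1, from LOC100288069 to TRNP1, was marked out after the values were seen. Of its 278 genes tested, 141 rose (50.7%) and 1 fell, and the median log2 fold change was 0.54. On the rest of chromosome 1, 81 of 1257 genes rose, 134 fell and the median was -0.06. The stretch holds genes of unrelated function: ARID1A, a chromatin remodelling subunit, rose by 1.17, KDM1A, a histone demethylase, by 1.35, CLIC4 by 1.06 and SKI, a repressor of TGF-beta signalling, by 1.05. The gene that fell, TMEM51-AS1, is named as an antisense RNA, and whether counting used strand was not given.

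Chromosomes 20, 6 and 11 are given because, after the values were seen, they stood out for their share of rises. On chromosome 20, 99 of 405 genes rose (24.4%) and 11 fell, with a median of 0.23. On chromosome 6, 163 of 795 rose (20.5%) and 25 fell, or 126 of 747 and 25 without the clustered histone genes, and on chromosome 11, 124 of 800 rose (15.5%) and 28 fell. Over all other placed genes, 854 of 12763 rose (6.69%) and 1006 fell (7.88%). Among genes named above that rose, NT5E, EZR, TNFAIP3 and TAP2 lie on chromosome 6 and MMP13, FOSL1 and LDHA on chromosome 11. CCN2 on chromosome 6 and RDX on chromosome 11 were not called. Within the chromosome 1 stretch, the median distance of a library from the CD44 Low mean was 0.62, 0.61 and 0.34 (log2) for CD44 High replicates 1 to 3 and 0.25 to 0.29 for the parental libraries, which therefore lay between the groups. On chromosome 6 this median was 0.32, 0.27 and 0.08 for CD44 High and 0.07, 0.05 and 0.27 for CD44v6 replicates 1 to 3. On chromosome 11 it was 0.11, 0.08 and 0.23 for CD44 High and 0.26, 0.17 and 0.13 for CD44v6. On chromosome 20 it was 0.25, 0.28 and 0.17 for CD44 High and 0.21, 0.16 and 0.31 for CD44v6. In the chromosome 1 stretch it was 0.48, 0.35 and 0.68 for CD44v6 replicates 1 to 3. The CD44 High libraries thus did not share these shifts equally, and neither did the CD44v6 libraries. In each of these regions CD44 High replicate 3 lay closer to CD44v6 replicates 1 and 2 than to CD44 High replicates 1 and 2. CD44v6 replicate 3 lay closer to CD44 High replicate 1 than to CD44v6 replicates 1 and 2. The reason was not tested. These medians cover genes averaging a log2 CPM of at least 1. In the J82 comparison of CD44 High with CD44 Low, 8.83% of 15951 genes rose and 6.9% fell. For the J82 counts by position, only genes tested in J82 and averaging a log2 CPM of at least 1 in RT-112 were taken. They are thus a smaller set than the RT-112 counts above. Of 225 such genes of the stretch, 24 rose, 6 fell and the median was 0.00. On the rest of chromosome 1, 75 of 971 such genes rose and 67 fell in J82. No DNA was measured, and the copy number of these regions was not analysed here.

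**Figure D4:**
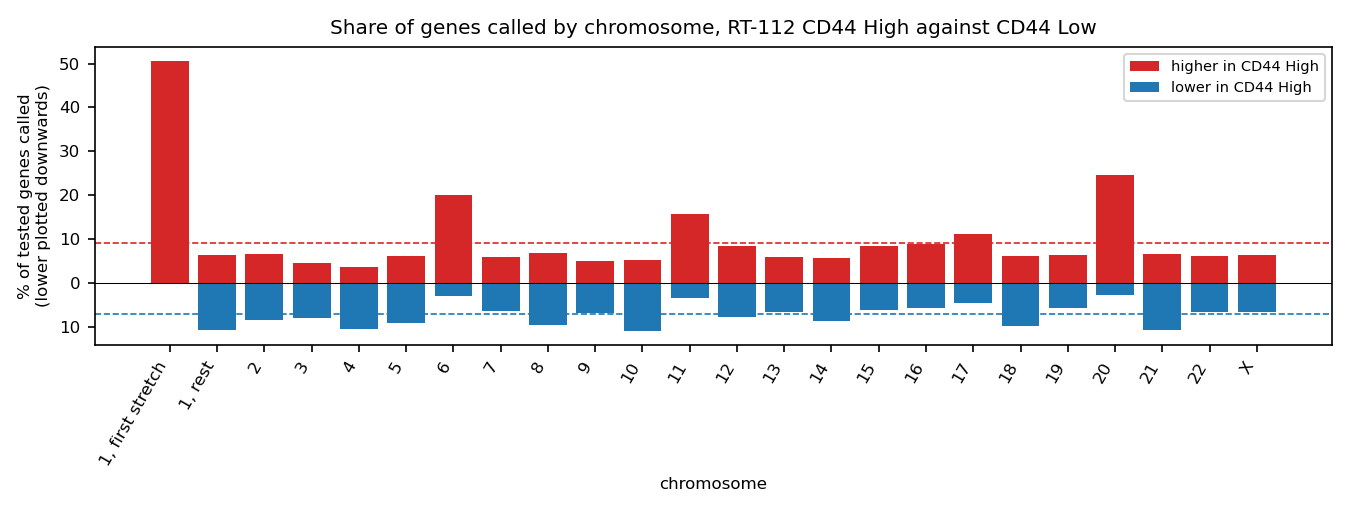
Percentage of tested genes called higher (red, upwards) or lower (blue, downwards) in CD44 High, by chromosome, with chromosome 1 divided into its first stretch and the rest. Dashed lines are the shares over all genes, 9.01% and 7.02%; the first stretch of chromosome 1 reaches 50.7%.

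Base composition moved with the result as well. Ranked by the GC content of their transcripts, the fifth of genes lowest in GC had a median log2 fold change of -0.11, with 114 higher and 262 lower, and the fifth highest in GC had a median of 0.08, with 342 higher and 172 lower. GC values were matched for 92.9% of genes tested and 95.4% of genes called. The part of base composition in the list results was not tested.

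The same comparison was made in J82. J82 is a bladder cancer line of mesenchymal character, and each line's contrast used only its own libraries. CD44 differed between its groups to a like extent: the log2 fold change was 1.39 in J82, and the difference between the lines was 0.20 (SE 0.23, adjusted p = 0.692). Across 17438 genes, the contrast differed between the lines in 1858 (10.7%), 770 with the higher value in RT-112 and 1088 with the higher value in J82. Of 74 genes named here that were tested in both lines, 34 differed. CDH1 fell by 3.47 in J82 (adjusted p = 1.89e-06) and had -0.18 in RT-112, a difference of 3.26 (SE 0.19, adjusted p = 1.11e-09). CDH1 was low in J82, at means of 5.75 CPM in CD44 Low and 0.513 CPM in CD44 High. VIM rose by 1.40 in J82 and was not called in RT-112, a difference of -2.16 (adjusted p = 0.0122).

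Other changes had the same direction in both lines. Of 70 named genes called in RT-112 and tested in J82, 30 were called in J82 (15.7% of all genes tested there), 24 of them in the same direction and 6 in the opposite one. NT5E rose by 2.14 in J82 (adjusted p = 2.15e-07), PLAT by 1.94, DUSP6 by 1.47, UBE2C by 1.43 and ITGA6 by 1.10, and IGFBP3 fell by 0.54. From low J82 CD44 Low means of 0.544, 1.60 and 2.52 CPM, HMGA2 rose by 3.28, TNC by 2.37 and PTHLH by 1.61. For these 9 genes the difference between the lines did not pass the test, with adjusted p-values from 0.0574 (NT5E, difference 0.66) to 1 (TNC, difference 0.05), which does not show that the changes were equal.

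The luminal factor genes also separated the lines, since PPARG and FOXA1 rose by 1.18 and 1.24 in J82 CD44 High, and their differences were -1.47 (adjusted p = 4.76e-07) and -1.43 (adjusted p = 0.00457). Their J82 levels were lower than those of RT-112. From CD44 Low to CD44 High, the J82 means were 21.1 and 47.6 CPM for PPARG and 2.18 and 5.15 CPM for FOXA1. HPGD fell by 2.17 in RT-112 and rose by 1.29 in J82, there from a mean of only 0.747 to 1.83 CPM. ABCG2 fell by 0.78 in RT-112 and rose by 0.82 in J82, there from 7.19 to 12.7 CPM. TGFB2 rose by 4.28 in RT-112 and fell by 0.37 in J82. MET, ITGA3 and COL4A2 rose in both lines and rose more in J82, by 0.95, 0.94 and 1.49. KRT17 fell in both and fell more in J82, by 1.45.

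**Figure D5:**
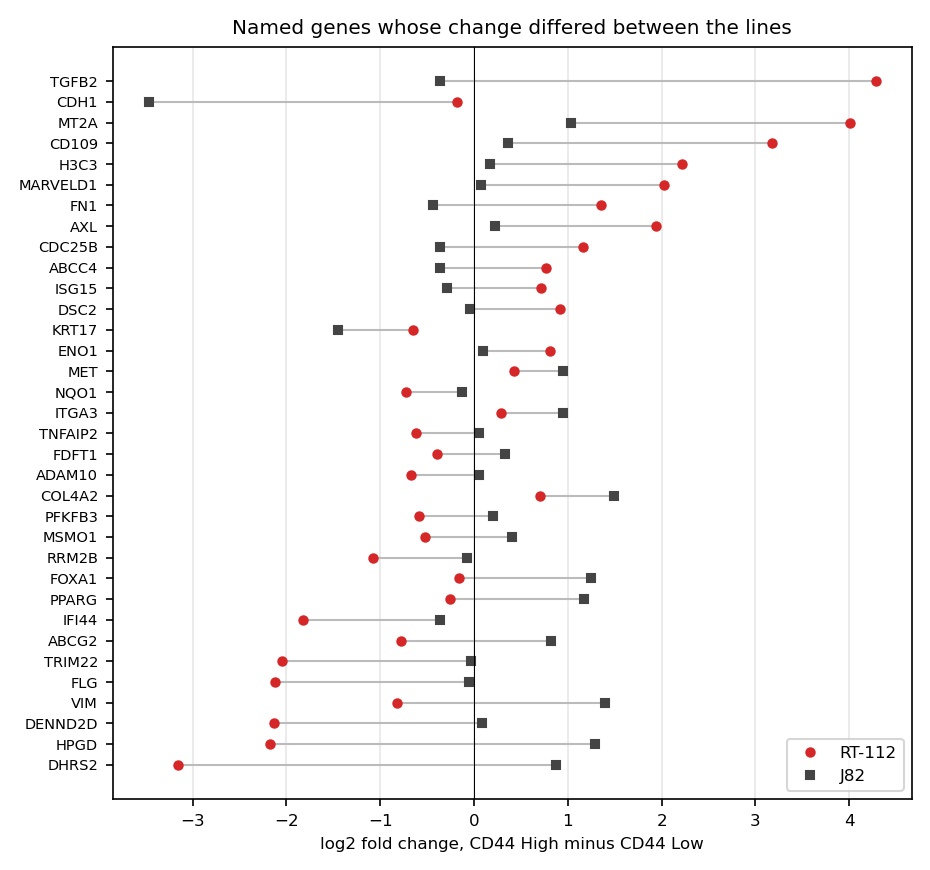
Log2 fold change, CD44 High minus CD44 Low, in RT-112 (red circles) and J82 (dark squares) for the 34 named genes whose change differed between the lines. Genes are ordered by the difference, from DHRS2 at -4.06 to TGFB2 at 4.603.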

How the data were processed

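Total RNA, purified on columns, went to a commercial sequencing service, per the labels' protocols. For all 24 libraries the authors deposited unnormalized counts per gene symbol in 1 table. HISAT2, StringTie and GRCh37 are named in the submitters' processing notes. Their roles, the annotation and the strand setting of the counting were not given in the sources used here.

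Columns were matched to samples by title (0 unmatched, 0 rows without a gene name). The 12 RT-112 libraries were fitted together in edgeR 4.0.16 (R 4.3.3) with filterByExpr, TMM scaling and the quasi-likelihood F-test, two-sided, with group as the only term, and Benjamini-Hochberg adjustment over 15645 genes. The common biological coefficient of variation was 0.152 (CD44 High 0.201, CD44 Low 0.146). Levels are CPM computed from the deposited counts. The difference from J82 was an interaction contrast over all 24 libraries. Replicate pairs within CD44 High and within CD44 Low gave a chi-square per degree of freedom of 10.1 to 47.0. That is more spread than random counting alone gives, but it does not show whether the libraries came from separate cultures. Same-numbered libraries correlated at 0.0171, 0.0362 and 0.0795 in their deviations from the group mean, and differently numbered ones at -0.0880 to 0.0502. With 3 libraries per group, such small values cannot exclude a batch shared by number. The labels give the numbers no meaning, so no block entered the main fit. Python 3.11.15 with matplotlib 3.10.9 drew the figures.

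The comparison, 18 gene lists and rule for naming genes were chosen with earlier results of these data known. The rule took CD44; the 12 largest increases and 12 largest decreases among non-overlapping genes that were called and averaged a log2 CPM of 3 or more; up to 3 called genes per list and direction, averaging a log2 CPM of 1 or more; and a set of genes named whatever their values (KRT5, KRT14, TP63, GATA3, PPARG, FOXA1, CDH1, VIM, EGFR, ERBB2, FGFR3, MET, MKI67, HAS2 and HAS3). Other genes are named as list members that illustrate a count, or for their position, after their values were seen. The results of some list genes are not reported here by name; the list counts and medians include them. Gene order and promoters came from RefSeq on GRCh38.p14, used for names and neighbours (98.3% of genes tested had a place), and GC content from GENCODE. The alternatives were other scalings, filters, DESeq2 1.42.0, fits on 6 or 24 libraries, a replicate block, a minimum log2 fold change of 1, and leaving out each library.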

Additional observations from a re-analysis of the deposited data

Results flagged for a closer look

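For 34 of the 74 named genes tested in both lines, the change from CD44 Low to CD44 High differed between RT-112 and J82 by the direct test of that difference (edgeR quasi-likelihood interaction contrast, Benjamini-Hochberg adjustment over 17438 genes, called at an adjusted p under 0.05). Values are the RT-112 log2 fold change minus the J82 one. Positive differences were found for TGFB2 (4.603), CDH1 (3.26), MT2A (2.96), CD109 (2.79), H3C3 (2.01), MARVELD1 (1.92), FN1 (1.76), AXL (1.69), CDC25B (1.49), ABCC4 (1.10), ISG15 (0.98), DSC2 (0.94), KRT17 (0.77) and ENO1 (0.69). Of these, TGFB2, MT2A, CD109, H3C3, MARVELD1, FN1, AXL, CDC25B, ABCC4, ISG15, DSC2 and ENO1 rose in RT-112 and did not rise by the test in J82. KRT17 fell in both lines and CDH1 fell in J82.

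Negative differences were found for DHRS2 (-4.06), HPGD (-3.49), DENND2D (-2.24), VIM (-2.16), FLG (-2.09), TRIM22 (-2.04), ABCG2 (-1.63), IFI44 (-1.50), PPARG (-1.47), FOXA1 (-1.43), RRM2B (-1.04), MSMO1 (-0.96), PFKFB3 (-0.82), COL4A2 (-0.81), ADAM10 (-0.76), FDFT1 (-0.75), TNFAIP2 (-0.69), ITGA3 (-0.68), NQO1 (-0.63) and MET (-0.56). HPGD, ABCG2, MSMO1, FDFT1 and PPARG were called in opposite directions in the lines, lower in RT-112 CD44 High and higher in J82 CD44 High. The RT-112 call held in 1 of 6 fits with a library left out for MSMO1 and PPARG and in 3 for FDFT1. TGFB2 was called in the reverse pair of directions. IFI44 fell in both lines, and MET, ITGA3 and COL4A2 rose in both.

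Over 12 fits that each left out 1 of the CD44 High or CD44 Low libraries, the test of the difference was lost in 9 for RRM2B, 8 for NQO1, 7 for MT2A, 6 for TNFAIP2, 5 for KRT17, 4 for ADAM10, and 1 each for ISG15, PFKFB3 and VIM. It held in all 12 for the other 25 genes. DHRS2 rests on a J82 log2 fold change of 0.87 with an adjusted p of 0.64, at means of 0.705 CPM in CD44 Low and 1.29 CPM in CD44 High.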

How the results depend on the processing

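CD44 and its log2 fold change kept direction and call under every alternative run (1.48 to 1.73 with a library left out). Against 2507 calls as reported (1409 higher, 1098 lower), there were 1171 (612 and 559) when only the 6 libraries were fitted and 497 (233 and 264) with a minimum log2 fold change of 1. With 1 library left out the counts ran from 1230 to 3091, the higher ones from 708 to 1621 and the lower ones from 522 to 1470; the lowest came without CD44 High replicate 1, and those without CD44 Low replicates 1 and 2 were 1344 and 1474. Fewer libraries enter these fits. Other scalings gave 2407 and 2452, no filter 1979 (942 and 1037), a mean of at least 50 counts 2472, all 24 libraries 2224 (1044 and 1180) and DESeq2 3062; lower genes outnumbered higher ones without a filter and with all 24 libraries. With the replicate number as a block, 2002 genes were called (1136 and 866), and whether the numbers pair the libraries was not settled. The count of genes differing between the lines was 1858, and 1229 to 2040 with a library left out, the lowest without RT-112 CD44 High replicate 1; it was 1769 with the replicate block and 2582 with DESeq2.

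Over all alternatives, 160 values of named genes lost and 4 gained a call, 1270 kept both direction and side, and 3 turned direction, none of them called: GATA3, which ran from -0.26 to 0.045 with a library left out (highest without CD44 Low replicate 3), and HAS3, which ran from -0.36 to 0.17 (0.17 without CD44 High replicate 1, 0.09 without CD44 Low replicate 2). The causes were not tested. Genes near 1 CPM, such as VIM, UPK1A and MSN, rest on few counts, which limits their precision. Counts per gene do not separate CD44 isoforms.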

Other observations

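Other families and genes that no list holds are given as values, chosen after they were seen. Among tubulin genes 6 of 16 tested were higher in CD44 High and none lower, with a median log2 fold change of 0.37, where 9.01% of all genes were higher and 7.02% lower. Among zinc finger genes with ZNF symbols 14 of 486 were higher and 31 lower, with a median of -0.16, so that the lower share was near that of all genes. SERPINB3, a serpin of squamous epithelium whose close copy SERPINB4 can share its reads, was at 17.4, 13.1 and 17.6 CPM in CD44 Low and at 2.10, 2.03 and 3.63 CPM in CD44 High, a log2 fold change of -2.61 (edgeR, adjusted p = 0.000122). The carcinoembryonic adhesion genes CEACAM5 and CEACAM6 fell by 1.82 and 1.87, CEACAM6 from 304, 269.7 and 260.2 CPM to 57.8, 74.2 and 95.8 CPM. In all 3 genes the CD44 Low libraries lay above every CD44 High library. MTOR, the growth-control kinase encoded in the chromosome 1 stretch, rose by 0.84, from 61.3, 68.0 and 70.0 CPM to 128, 129 and 101 CPM.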
